A study of Homo sapiens with 24 samples.

Results

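The comparisons described here set neighbouring fractions of a sucrose gradient against each other within cells carrying one form of DIS3: fraction 4 against fraction 3, and fraction 8 against fraction 7, in D146N rescue cells. They hold 12 of the 24 libraries of the series, 3 in each fraction, chosen by the genotype and fraction that label them. All 12 were made from 293T, a line of human embryonic kidney cells. Their DIS3 had been knocked down with the short hairpin DIS3-sh2, and DIS3 D146N, in which asparagine takes the place of an aspartate, had been put back. The groups are D146N fraction 4, D146N fraction 3, D146N fraction 8 and D146N fraction 7, so that hairpin, rescue construct and cell line are the same on both sides of each comparison. Cytoplasmic RNA was spun through sucrose, depleted of ribosomal RNA and sequenced. The labels do not give which end of the gradient was numbered 1, the rescue promoter, or whether a replicate number stands for a single gradient, and they describe 3 biological replicate sets.

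A sucrose gradient sorts particles by how fast they sediment. Free RNA and small ribonucleoproteins stay near the top, ribosomal subunits and single ribosomes run further, and mRNAs carrying many ribosomes run furthest. DIS3 is a ribonuclease joined to the barrel of the RNA exosome, the multisubunit machine that degrades RNA from the 3′ end. One of its domains, the PIN domain, is an endonuclease that needs acidic residues to hold metal ions, and the aspartate lost in D146N is one of these. Adjacent gradient fractions ordinarily hold overlapping populations of particles, and the comparison within a pair asks how far RNA content shifts over a single step along the gradient.

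The 12 libraries held between 21.2 and 28.1 M counts. The 10 most abundant rows took 76.4% to 77.6% of the counts in fractions 4 and 3, and 48.6% to 50.2% in fractions 8 and 7, most of them small stable RNAs such as the signal recognition particle RNA 7SL. Some of these RNAs, RPPH1 and RN7SK among them, have another row with identical counts, and both rows were kept in the totals and shares. Whether such rows count the same reads more than once was not tested. No 2 libraries agreed within sampling noise, and each was counted as a replicate. The 12 markers of the 293T line summed to 46.6 to 52.8 counts scaled to the library total (CPM) in fraction 4, 47.4 to 55.3 in fraction 3, 378 to 382 in fraction 8 and 381 to 403 in fraction 7, and none was at 0 in all 12 libraries. Transcripts of 15 secreted liver proteins, ALB, AFP and APOB among them, were also present, at summed levels of 28.4 to 34.3, 31.2 to 32.5, 558 to 588 and 597 to 611 CPM in fractions 4, 3, 8 and 7, and none of them was at 0 in all libraries. Where those transcripts came from was not tested. Of 12 blood and immune markers, CD3E, HBG2, PTPRC, S100A8 and S100A9 were at 0 in every library, and the 12 together summed to at most 1.97 CPM. Summed fibroblast markers ran from 18 to 22 CPM in fractions 4 and 3 and from 311 to 322 CPM in fractions 8 and 7, with FAP at 0, and epithelial markers from 4.69 to 5.84 and from 65.1 to 72.0 CPM, with KRT5 and KRT14 at 0. Every RNA value is a share of its library, so a lower share of one RNA and a higher share of the others cannot be told apart.

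Some libraries stood apart in a few genes. Fraction 7 replicate 2 held 20 of 10913 genes with a mean of at least 100 counts at 1.5 times or more the highest of the other 5 libraries of its pair, against 0 to 4 genes in each of those 5. The fold was chosen after the values were seen. CCNY-AS1, an antisense transcript at the cyclin Y gene, stood at 64.1 CPM there and at 0.628 to 1.03 CPM in the others, and KNL1, a kinetochore scaffold, at 119 CPM against 35.4 to 41.4 CPM. Fraction 4 replicate 2 held 4 of 3712 such genes. Counts of genes called with each library left out are given further on.

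Libraries from neighbouring fractions were about as far apart as replicates of the same fraction. The distance between 2 libraries was taken as the median size of the log2 ratio of scaled counts over genes with a mean of at least 100 counts. Between fraction 4 and fraction 3 it ran from 0.099 to 0.116 over 9 pairs of libraries with a median of 0.111, and between replicates of one fraction it ran from 0.10 to 0.115 over 6 pairs with a median of 0.106. The 2 ranges overlapped almost fully. Between fraction 8 and fraction 7 it ran from 0.119 to 0.126 with a median of 0.124, and between replicates of either fraction from 0.116 to 0.133 with a median of 0.121. Replicates of fraction 8 were closer to each other, at 0.116 to 0.119, than those of fraction 7, at 0.123 to 0.133. Most pairs between the fractions thus lay above the fraction 8 replicates and within or near the range of the fraction 7 replicates. The 36 pairs of a library from fractions 8 or 7 with one from fractions 4 or 3 lay far higher, at 0.462 to 0.495, over another set of genes. The mean count was taken over the libraries compared. It kept 3712 genes for fractions 4 and 3, 10913 for fractions 8 and 7, and 9272 for all 12 libraries. The far pairs thus include genes with fewer counts in fractions 4 and 3, which adds sampling noise to their distance. These pairs share libraries and are a description.

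**Figure D1:**
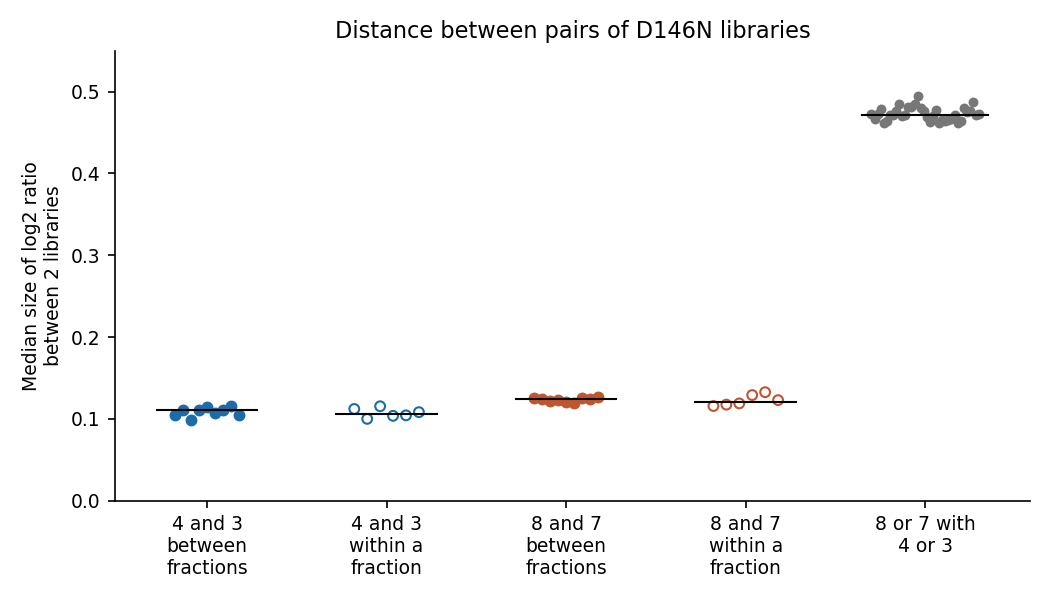
Each point is a pair of D146N libraries, placed by the median size of the log2 ratio between them, and the horizontal bars are medians. Pairs across neighbouring fractions (medians 0.111 and 0.124) sit beside pairs within a fraction (0.106 and 0.121), and all 36 pairs across the gradient sit above 0.46.

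Gene by gene, a single mRNA passed the test between fractions 4 and 3 and none between fractions 8 and 7. Calls were made where the adjusted p fell under 0.05 in edgeR's quasi-likelihood test with Benjamini-Hochberg adjustment over all genes tested in a comparison, and every adjusted p below is from that test unless another tool is named. Between fractions 4 and 3, 1 of 13208 genes was called, 0.00757%. At an unadjusted p under 0.05 stood 732 genes (5.54%), of which 353 were higher (2.67%) and 379 lower (2.87%) in fraction 4, and the 3 libraries of one fraction did not overlap the 3 of the other in CPM for 10.1% of the genes. Between fractions 8 and 7, 0 of 16935 genes were called, 0%, with a smallest adjusted p of 0.216. At an unadjusted p under 0.05 stood 859 genes (5.07%), of which 465 were higher (2.75%) and 394 lower (2.33%) in fraction 8, and 11% of the genes did not overlap. DESeq2 called 0 genes in both comparisons, with 240 and 659 at an unadjusted p under 0.05, and limma's voom called 3 and 0.

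The called gene was MAD2L1, which encodes MAD2, the spindle checkpoint protein that holds back anaphase until chromosomes are attached (ENSG00000164109.14, GRCh38 chromosome 4, 120055623 to 120066848). It stood at 7.04, 9.86 and 7.19 CPM in fraction 4, against 4.95, 5.48 and 4.78 CPM in fraction 3. All 3 fraction 4 libraries were above all 3 of fraction 3, and fraction 4 replicate 2 was the highest. The means were 8.03 ± 1.59 CPM in fraction 4 and 5.07 ± 0.367 CPM in fraction 3 (SD, 3 libraries each). The log2 fold change was 0.66 with a standard error (SE) of 0.121 and an adjusted p of 0.00831, a 1.58-fold difference with a 95% interval of 1.34 to 1.87. MAD2L1 fell short of the abundance of 10 CPM set for naming genes and is named because it was the only call. Its call was lost without fraction 4 replicate 2 (log2 fold change 0.46, adjusted p 0.555), without fraction 3 replicate 1 (0.65, 0.226), replicate 2 (0.73, 0.0794) or replicate 3 (0.60, 0.412), and with DESeq2 (0.67, 0.395).

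In the other pair MAD2L1 mRNA was more abundant and level. It had 56.1, 55.2 and 54.9 CPM in fraction 8, against 52.4, 56.3 and 57.9 CPM in fraction 7, and the libraries overlapped. The log2 fold change was 0.03 with a 95% interval of -0.10 to 0.16. The difference between the steps, fraction 8 over 7 less fraction 4 over 3, was -0.63 with an SE of 0.139 and an adjusted p of 0.193, short of the threshold. HMMR, a spindle-associated hyaluronan receptor chosen after its values were seen, also had separate libraries, at 7.00, 9.36 and 7.83 CPM in fraction 4 and 5.19, 6.21 and 6.78 CPM in fraction 3. Its log2 fold change of 0.41 had an adjusted p of 0.648. The list of 22 mitotic mRNAs holds HMMR but not MAD2L1. Of the 22, 12 lay above 0 with a median log2 fold change of 0.04 in fraction 4 over 3. In fraction 8 over 7, 7 lay above 0 with a median of -0.02.

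**Figure D2:**
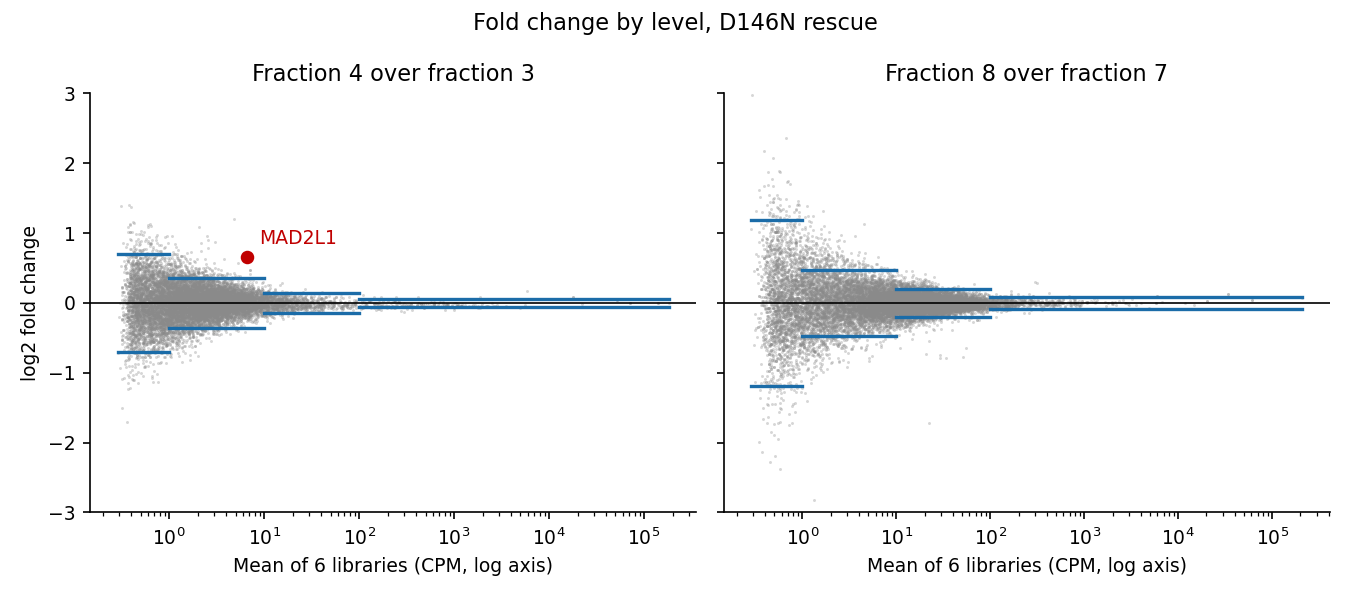
Each grey point is a gene, placed by its mean CPM over the 6 libraries (log axis) and its log2 fold change, with fraction 4 over 3 on the left and fraction 8 over 7 on the right. Blue lines mark the median 95% half-width on both sides of 0 in each band of level, MAD2L1 is in red, and 2 genes (left) and 1 gene (right) lie beyond the axis.

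How large a difference could have been missed depended on the level. In fraction 4 over 3, the 95% interval of the fold change lay within 2-fold either way for 87.4% of genes, and within 1.5-fold for 54.3%. The median half-width was 0.40 on the log2 scale. Of genes at 10 to 100 CPM, 1096 of 1097 had an interval within 1.5-fold, as did all 224 genes at 100 CPM or more. Below 1 CPM the share within 2-fold was 58.8%. In fraction 8 over 7 the shares were 79.4% within 2-fold and 62.8% within 1.5-fold. There, 7304 of 7386 genes at 10 to 100 CPM and 683 of 686 at 100 CPM or more had an interval within 1.5-fold, but only 8 of 2231 genes below 1 CPM had one within 2-fold. Below 1 CPM in fraction 8 over 7, a 2-fold difference up or down thus lay inside the interval of nearly every gene. Whether depth or the spread between libraries set these widths was not tested.

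DIS3 itself (ENSG00000083520.15, GRCh38 chromosome 13, 72752169 to 72781900) did not separate neighbouring fractions. Its mRNA stood at 8.46, 9.44 and 9.46 CPM in fraction 4, against 7.79, 8.33 and 9.63 CPM in fraction 3. The groups overlapped, and the log2 fold change was 0.09 with a 95% interval of -0.11 to 0.28 and an adjusted p of 0.953. It had 103, 94.0 and 95.5 CPM in fraction 8, against 86.7, 115 and 102 CPM in fraction 7. Fraction 7 held both the lowest and the highest library, and the log2 fold change was -0.02 (-0.15 to 0.12, adjusted p 0.998). Counts per gene do not tell the D146N transcript from any remaining endogenous one.

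No other gene of the exosome list was called. The list held DIS3, the paralogues DIS3L and DIS3L2, the catalytic subunit EXOSC10 and the barrel and cap subunits EXOSC1 to EXOSC9. In fraction 4 over 3, 0 of 13 were called, and 11 of 13 lay above 0 with a median of 0.10, against 49.2% of all genes above 0 and a median of -0.00. Leaving out libraries moved that median between 0.03 and 0.12. EXOSC8, a barrel subunit, had 22.2, 18.4 and 19.6 CPM in fraction 4, against 17.5, 17.7 and 19.1 CPM in fraction 3. Its libraries overlapped, and the log2 fold change of 0.15 (0.02 to 0.29) had an unadjusted p of 0.0241 in edgeR and an adjusted p of 0.871. EXOSC6, another barrel subunit, did not overlap, at 4.80, 4.28 and 5.18 CPM in fraction 4 and 3.89, 4.20 and 4.16 CPM in fraction 3, with an adjusted p of 0.911.

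In fraction 8 over 7, 0 of 13 genes of the exosome list were called. There, 8 of 13 lay above 0 with a median of 0.02, against 50.2% of all genes and a median of 0.00. That median was -0.01 when libraries were scaled by their totals. EXOSC9 had 57.9, 51.0 and 58.6 CPM in fraction 8, against 51.6, 53.2 and 51.2 CPM in fraction 7. Fraction 8 replicate 2 lay below all 3 libraries of fraction 7, and the log2 fold change of 0.14 had an adjusted p of 0.984. EXOSC7 went the other way without overlap, at 11.5, 13.4 and 10.4 CPM in fraction 8 and 13.4, 14 and 13.8 CPM in fraction 7, where the nearest libraries almost met, with a log2 fold change of -0.19 (-0.45 to 0.07, adjusted p 0.994). The 15 exosome cofactors, which bring RNA to the complex, had medians of 0.02 and -0.01 in the 2 steps, and none was called. Leaving out single libraries moved these medians between -0.06 and 0.14 and between -0.05 and 0.05, across 0 in both.

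**Figure D3:**
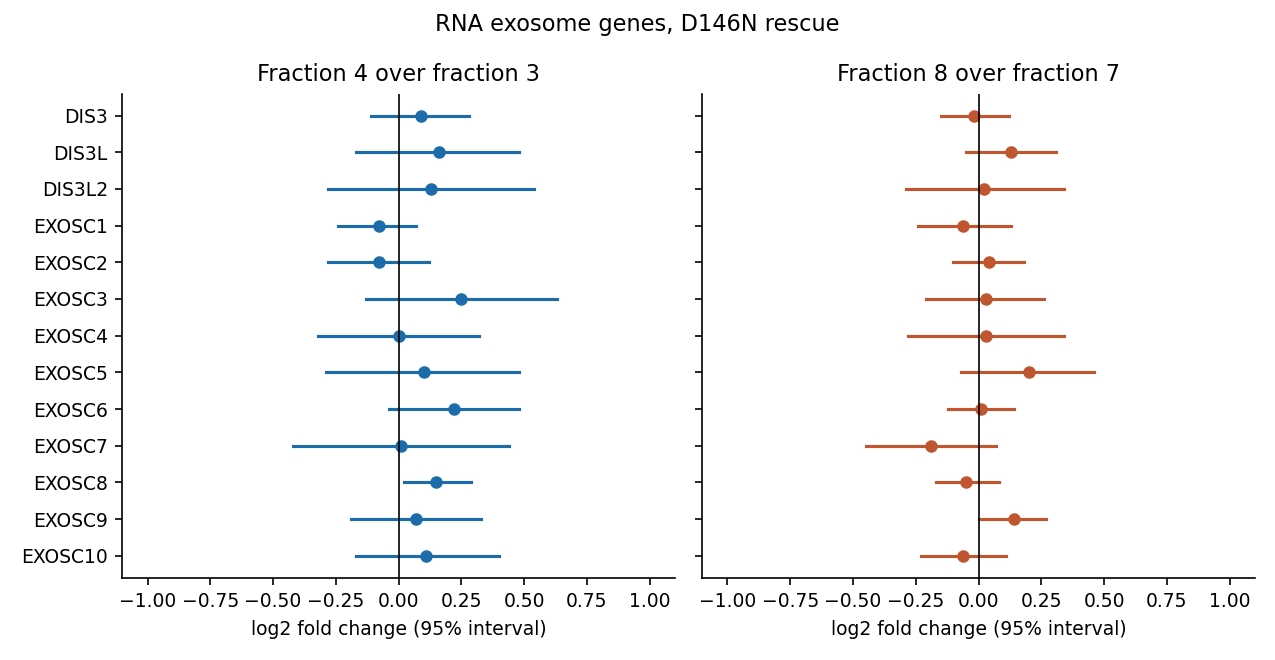
Log2 fold changes of the 13 genes of the exosome list with 95% intervals, fraction 4 over 3 on the left and fraction 8 over 7 on the right. Intervals of all genes except EXOSC8 on the left, and EXOSC9 on the right, include 0, and no gene passed the adjusted threshold.

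Of the lists with at least 20 tested genes, messenger RNAs of ribosomal proteins had the smallest shares above 0 in fraction 4 over 3, by small amounts and with none called. These mRNAs typically begin with a terminal oligopyrimidine (TOP) tract, a cytosine followed by a run of pyrimidines at the very 5′ end, through which growth signals control their translation. The windows below show the annotated start of 4 abundant ones, 10 bases before it and 20 from it on, with the pyrimidine run that begins at the start in capitals. They come from RefSeq on GRCh38.p14, and the start used in these cells was not measured.
RPLP1 (chr15:69452808-69452837, plus strand): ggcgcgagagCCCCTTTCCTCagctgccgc
RPS19 (chr19:41860245-41860274, plus strand): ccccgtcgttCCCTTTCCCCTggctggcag
RPL27 (chr17:42998409-42998438, plus strand): gtgaaaggttagcggaagtgtccttctttc
RPL32 (chr3:12841546-12841575, minus strand): acgacccatcagcccttgcgcgccaccgtc
The first pair opens with a run of 11 pyrimidines, while RPL27 and RPL32 have none at the annotated base.

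Of the large-subunit proteins, 53 of 54 mRNAs were tested in fraction 4 over 3. None was called, 6 lay above 0, 0 were higher and 9 lower at an unadjusted p under 0.05, and the median log2 fold change was -0.04. Of the small-subunit proteins, all 33 were tested, none was called, 6 lay above 0, 0 were higher and 9 lower at the unadjusted threshold, and the median was again -0.04. Across all genes, 2.87% were lower at that threshold. Leaving out single libraries moved the medians between -0.06 and -0.02 for the large and between -0.05 and -0.03 for the small subunit. Summed over the large-subunit list, the share of the library was 5.30%, 5.02% and 5.31% in fraction 4, against 5.32%, 5.47% and 5.40% in fraction 3. All 3 fraction 4 shares were below all 3 of fraction 3, fraction 4 replicate 2 being the lowest, and the exact two-sided permutation p was 0.1, the smallest that 3 against 3 allows, and 0.76 adjusted over the 38 lists. The small-subunit shares overlapped, at 4.26%, 4.07% and 4.34% in fraction 4 and 4.29%, 4.39% and 4.36% in fraction 3, with an exact permutation p of 0.2. In fraction 8 over 7 the medians were -0.01 and -0.00, with 19 of 53 and 15 of 33 mRNAs above 0.

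RPL12, a protein near the base of the ribosomal stalk, had 4912, 4590 and 4918 CPM in fraction 4, against 5040, 5068 and 5080 CPM in fraction 3. The libraries did not overlap, and fraction 4 replicate 2 was again lowest. Its log2 fold change was -0.07 (-0.12 to -0.02) with an adjusted p of 0.733 in edgeR, whereas limma's voom called it at an adjusted p of 0.000777. In fraction 8 it stood at 832, 786 and 833 CPM and in fraction 7 at 846, 831 and 853 CPM, with a log2 fold change of -0.01. RPLP1, a stalk protein, stood at 6343, 6007 and 6355 CPM in fraction 4 and at 6344, 6632 and 6454 CPM in fraction 3. Its libraries overlapped, and the log2 fold change was -0.05 (-0.10 to 0.00). RPS19, a small-subunit protein, had 2800, 2819 and 2842 CPM in fraction 4, against 2855, 3015 and 2941 CPM in fraction 3, also at -0.05, without overlap.

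The mRNAs without a pyrimidine run at the annotated start lay at similar values. RPL27 had 2292, 2154 and 2277 CPM in fraction 4, against 2302, 2383 and 2325 CPM in fraction 3, a log2 fold change of -0.06 with an adjusted p of 0.876. RPL32 had 2133, 2056 and 2165 CPM in fraction 4, against 2176, 2225 and 2178 CPM in fraction 3, at -0.05. Both had separate libraries. A TOP start was scored where the annotated first base was C and the next 4 bases were C or T, on the transcribed strand only, and 1104 of 27305 promoters in the RefSeq table had one (4.04%). In fraction 4 over 3, the 44 ribosomal protein mRNAs with such a start had a median of -0.04, the 24 without one had -0.04, and 498 other mRNAs with one had -0.00. In fraction 8 over 7 the 3 medians were -0.00, -0.01 and 0.01. The starts used in these cells were not measured, so the split with and without a TOP start is by annotation only. The 20 translation factor mRNAs of the TOP class had medians of 0.00 in both steps.

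**Figure D4:**
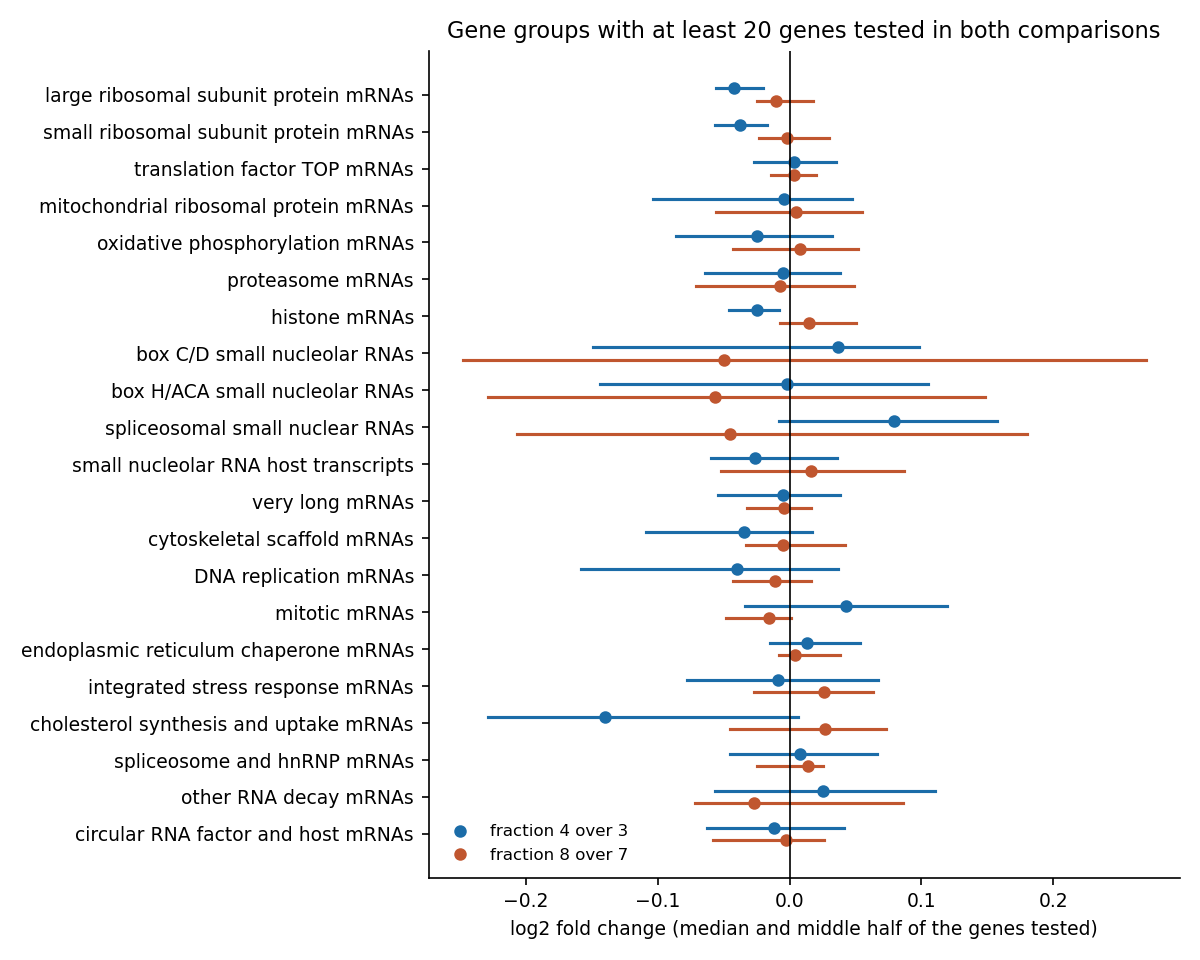
Median log2 fold change (points) and interquartile range over the genes tested (lines) for the 21 gene lists with at least 20 genes tested in both comparisons, fraction 4 over 3 in blue and fraction 8 over 7 in orange. All points lie within 0.1 of 0 except cholesterol synthesis in fraction 4 over 3, at -0.14.

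No list held a called gene in either comparison. Of the lists with at least 20 tested genes, 20 of 21 had a median within 0.1 of 0 in fraction 4 over 3, and 22 of 22 in fraction 8 over 7. Cholesterol synthesis and uptake mRNAs were the exception, with 6 of 22 above 0 and a median of -0.14 in fraction 4 over 3, and 14 of 23 above 0 and a median of 0.03 in fraction 8 over 7.

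Mitochondrial and nuclear components of respiration differed little. Of 80 oxidative phosphorylation mRNAs, 31 lay above 0 in fraction 4 over 3, 1 was higher and 9 lower at an unadjusted p under 0.05, and the median was -0.02. Of all genes in that comparison, 49.2% lay above 0, 2.67% were higher and 2.87% lower. In fraction 8 over 7, 42 lay above 0 with a median of 0.01. The transcript of cytochrome oxidase subunit MT-CO1 had 2051, 1884 and 2003 CPM in fraction 4, against 1986, 1967 and 2056 CPM in fraction 3, a log2 fold change of -0.01. Of 13 mitochondrially encoded mRNAs, 4 lay above 0 in fraction 4 over 3, with 2 higher and 0 lower at the unadjusted threshold. In fraction 8 over 7, 6 lay above 0, with 1 higher and 2 lower, against 2.75% and 2.33% of all genes. None was called. MT-ND4L had a log2 fold change of 0.12 in fraction 4 over 3 (adjusted p 0.716). In fraction 8 over 7 it was at -0.15 without overlap (adjusted p 0.707). Histone mRNAs, which lack a poly(A) tail, had 11 of 53 above 0 with a median of -0.02 in fraction 4 over 3, and 39 of 59 with a median of 0.02 in fraction 8 over 7. That second median was -0.02 when libraries were scaled by their totals. H4C14, a histone H4 gene, had 523, 503 and 528 CPM in fraction 4, against 541, 538 and 541 CPM in fraction 3, at -0.06 with an adjusted p of 0.876.

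The mitochondrial ribosomal RNAs varied widely among the replicates of fraction 4. MT-RNR1, the small one, stood at 0.32, 24.1 and 12.7 CPM in fraction 4, against 0.324, 0.256 and 0.539 CPM in fraction 3. Replicates 2 and 3 of fraction 4 were far above the other 4 libraries, and replicate 1 was not, so the log2 fold change of 5.03 had an interval of -0.23 to 10.28 and an adjusted p of 0.881. MT-RNR2, the large one, was high in the same 2 libraries, at 0.0711, 9.90 and 5.79 CPM in fraction 4 and 0.243, 0.511 and 0.231 CPM in fraction 3. It was called at a log2 fold change of 4.55 (adjusted p 1.05e-14) only when fraction 4 replicate 1 was left out. In fraction 8 MT-RNR1 had 68.2, 87.2 and 59.8 CPM, against 54.4, 53.7 and 75 CPM in fraction 7, with overlap.

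Abundant small RNAs lay on both sides of 0 in fraction 8 over 7, some of them a few percent higher, and none was called. RN7SL1, the RNA scaffold of the signal recognition particle that brings ribosomes to the endoplasmic reticulum (chromosome 14, 49586580 to 49586878), had 208733, 214832 and 212388 CPM in fraction 8, against 206281, 206182 and 206179 CPM in fraction 7. The libraries did not overlap, and the log2 fold change was 0.07 (0.04 to 0.11) with an adjusted p of 0.422. RPPH1, the RNA of the tRNA-processing enzyme RNase P (chromosome 14, 20343071 to 20343411), had 5967, 6100 and 6097 CPM in fraction 8, against 5601, 5859 and 5942 CPM in fraction 7. It was also separate, by a narrow margin, at 0.10 (0.05 to 0.14) with the same adjusted p. The 13 RNAs of the class that also holds 7SK, RNase MRP, Y and vault RNAs took 32.9%, 33.7% and 33.4% of the counts in fraction 8, against 32.7%, 32.5% and 32.5% in fraction 7, with an exact two-sided permutation p of 0.1 and 0.292 adjusted over 38 lists. The same smallest p was reached by 13 of the 38 lists, this one higher and 12 lower in fraction 8, among them spliceosomal small nuclear RNAs and very long, mitotic, DNA replication and secreted liver protein mRNAs. Shares within a library are tied to each other, so whether these are separate changes cannot be told. Of the 12 tested RNAs of the class with 7SL and 7SK, 7 lay above 0. At an unadjusted p under 0.05 in edgeR, 4 of the 12 were higher and 0 lower, against 2.75% and 2.33% of all genes. Copies of 7SL may share reads, which was not tested, so RN7SL1 and RN7SL3 cannot be taken as independent.

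Some other abundant small RNAs of the same comparison were level or lower. RN7SK, the RNA that holds the elongation factor P-TEFb inactive, had 20413, 20628 and 20301 CPM in fraction 8, against 21058, 20228 and 20323 CPM in fraction 7, at 0.03 (-0.01 to 0.07). SNORD3A, a copy of the U3 RNA of ribosome assembly, had 5078, 4848 and 4033 CPM in fraction 8, against 4878, 5054 and 5252 CPM in fraction 7. Fraction 8 replicate 3 was the lowest of the 6, and the log2 fold change was -0.09 (-0.35 to 0.17). SCARNA7 and SCARNA9, both of the Cajal body list, each had a log2 fold change of -0.08, with overlapping libraries and adjusted p of 0.985 and 0.994. They were the only 2 of the 11 Cajal body RNAs tested that lay below 0. The other 9 lay above 0, against 50.2% of all genes, and the median of the list was 0.06.

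SCARNA2, a Cajal body RNA that guides modification of a spliceosomal RNA (chromosome 1, 109100193 to 109100612), had 33884, 34536 and 36207 CPM in fraction 8, against 31595, 32362 and 33971 CPM in fraction 7. The highest library of fraction 7 exceeded the lowest of fraction 8, although fraction 8 was the higher at each replicate number. The log2 fold change was 0.13 (0.07 to 0.19) with an adjusted p of 0.422. It was called without fraction 7 replicate 3 (0.16, adjusted p 0.000882) and without fraction 8 replicate 1 (0.16, 0.00233), with no filter (0.13, 2.72e-08) and with a filter at 10 CPM (0.13, 0.0428), and not with DESeq2 (0.13, 0.35) or voom (0.13, 0.92). With a replicate block SCARNA2 was called as well (0.13, adjusted p 2.28e-06). With no filter RN7SL1, RPPH1 and the U2 row described next were called too. SNHG22, a small nucleolar RNA host transcript, had 429, 431 and 444 CPM in fraction 8, against 384, 410 and 412 CPM in fraction 7, at 0.15 (0.08 to 0.21) with the same adjusted p of 0.422. A low-count row named U2, after the spliceosomal RNA, had 6.08, 7.26 and 5.24 CPM in fraction 8, against 1.93, 3.68 and 3.05 CPM in fraction 7, and its log2 fold change of 1.14 (0.68 to 1.6) gave the smallest adjusted p of the comparison. These genes were chosen after their values were seen. In that comparison 2.75% of all genes were higher at an unadjusted p under 0.05.

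Between fractions 4 and 3, RN7SL1, RPPH1, SCARNA2, SNHG22 and the U2 row lay near 0 or below it, and none was called. SCARNA7 was higher in fraction 4, at 0.09 (0.03 to 0.15), with overlapping libraries and an adjusted p of 0.648. Of 11 tested RNAs of the class with 7SL and 7SK, 8 lay above 0, against 49.2% of all genes. Their median was 0.09, and leaving out single libraries moved it between -0.00 and 0.09. SNHG22 had a log2 fold change of -0.03. RN7SL1 had a log2 fold change of -0.00 there, with a 95% interval of -0.08 to 0.08. RPPH1 had 140086, 139700 and 143183 CPM in fraction 4, against 141761, 137640 and 143280 CPM in fraction 3, at 0.01 (-0.04 to 0.06). SCARNA2 had 1733, 1593 and 1700 CPM in fraction 4, against 1705, 1807 and 1723 CPM in fraction 3, at -0.06 (-0.11 to -0.00) with an unadjusted p of 0.0463 in edgeR and an adjusted p of 0.876. The U2 row had 3.09, 1.59 and 2.04 CPM in fraction 4, against 2.39, 3.47 and 2.04 CPM in fraction 3, at -0.22 (-0.61 to 0.17). The difference of SCARNA2 between the steps, 0.19 with an SE of 0.038, had the smallest adjusted p of that test, 0.0978, and was not called.

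**Figure D5:**
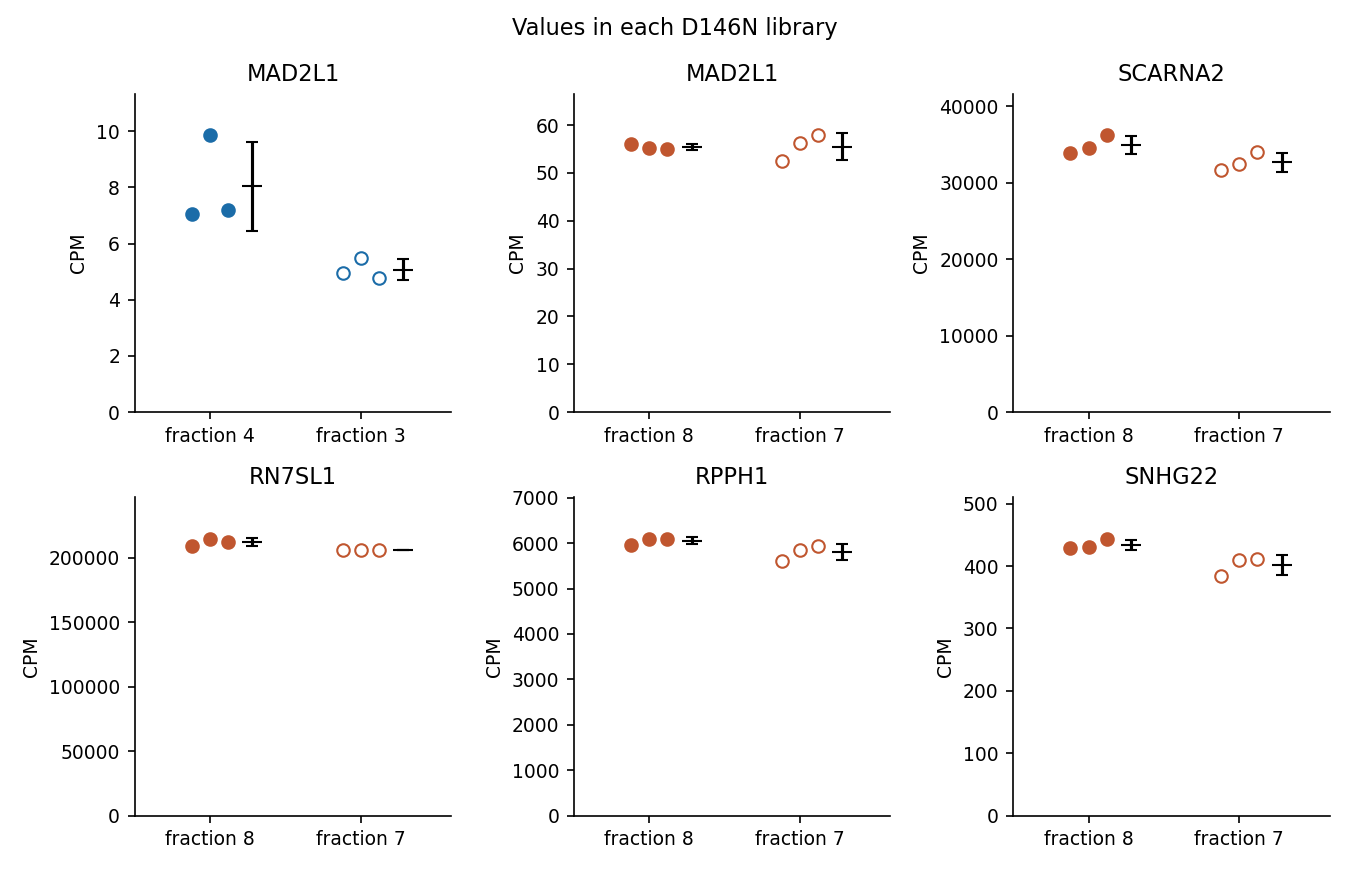
CPM in each library (points) with mean and SD (bars), each panel with its own scale from 0. MAD2L1 separates fraction 4 from fraction 3 and not fraction 8 from fraction 7. The mean CPM in fraction 8 over that in fraction 7 was 1.07 for SCARNA2, whose libraries overlap. It was 1.03 for RN7SL1, 1.04 for RPPH1 and 1.08 for SNHG22, and none of these was called.

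Over 12941 genes tested in both pairs, 0 had a difference between the 2 steps that passed the threshold (0%), and 767 had an unadjusted p under 0.05 (5.93%), so no gene was shown to step differently in the 2 regions of the gradient. Gene span, the length of a gene on the genome and not of its RNA, bore almost no relation to either step. Transcript length was not examined. Across 12113 genes with an annotated span, Spearman's rho with the log2 fold change was 0.04 in fraction 4 over 3, and across 14951 genes it was -0.04 in fraction 8 over 7. Both are descriptions over genes, which are not independent replicates. Very long mRNAs had medians of -0.00 in both steps. MALAT1, a long nuclear RNA, had 165, 153 and 172 CPM in fraction 4 and 155, 154 and 167 CPM in fraction 3, and GAPDH, a glycolytic enzyme mRNA, had 95.7, 90.4 and 90.0 CPM in fraction 4 and 90.1, 98.3 and 93.6 CPM in fraction 3, with overlap in both.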

How the data were processed

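RNA sequencing of 12 D146N libraries was analysed, and WT libraries were not used here. The deposited values are expected counts per gene, not normalized by the authors, in 61853 rows with versioned Ensembl identifiers. Of the nonzero values, 74.6% were whole within 0.005. Per the submitters' processing notes, featureCounts 1.5.1, HISAT2 2.1.0, Bowtie2 2.3.5 and SAMtools were used with hg38, in roles not given; strand handling is not given in the sources used here. Whole counts had been assumed when the tests were written, so values were rounded before fitting. Symbols were matched for 67.99% of rows, and positions are from RefSeq on GRCh38.p14.

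Each pair of fractions was fitted alone with edgeR 4.0.16 in R 4.3.3: filterByExpr, TMM factors over its 6 libraries (0.959 to 1.022 for fractions 4 and 3, 0.983 to 1.015 for fractions 8 and 7) and a robust quasi-likelihood fit. The difference of the steps came from a joint fit of 12 libraries. Intervals are the estimate plus or minus the 95% t quantile times its SE. CPM is a count scaled to the library total, without TMM factors. P-values measure the spread between libraries, and intervals cover no other source of error. The biological coefficient of variation was 5.71% and 10.06%. Class shares were compared by exact permutation. DESeq2 1.42.0, limma 3.58.1 voom, other scalings and filters, a replicate block and leaving out each library were alternatives, and the fits were tested on simulated data.

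The members and the 38 gene lists were chosen with earlier results of these data known. The naming rule took DIS3, all genes of the exosome list, and called genes of at least 10 CPM without overlap. It took up to 12 each way for a pair and 8 for the difference, with up to 4 called members of a list. Beyond DIS3 and the exosome list it named none, and other genes were chosen after their values were seen. RPPH1, RN7SK and RMRP each have a row with identical counts and are named once. Both rows were kept in the library totals that CPM and shares are scaled to.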

Additional observations from a re-analysis of the deposited data

How the results depend on the processing

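The call counts were 1 for fraction 4 over 3 and 0 for fraction 8 over 7, and they kept those values with DESeq2 size factors, with library totals, without small and mitochondrial RNAs and in a fit of all 12 libraries. In fraction 4 over 3 the count was 3 with no filter, 0 with a filter at 10 CPM, 0 with DESeq2 and 3 with voom. In fraction 8 over 7 it was 7 with no filter and 2 with the 10 CPM filter, SCARNA2 and a row with nearly identical counts. Leaving out single libraries gave 0 to 11 calls in fraction 4 over 3, 0 to 4 in fraction 8 over 7 and 0 to 3 for the difference of the steps. The 11 came without fraction 4 replicate 1 and include MAD2L1, MT-RNR2, HMMR and RMRP; leaving out any library of fraction 3 gave 0. The 4 came without fraction 8 replicate 1 and are SCARNA2, the row nearly identical to it, RN7SL1 and RN7SL3. Over genes with a mean of at least 100 counts, libraries with the same replicate number did not deviate together (correlations of -0.016 to 0.033). The numbers were therefore not taken as pairs. A correlation over all these genes cannot show whether single abundant RNAs were paired. With a replicate block the counts were 2, 9 and 3 for fraction 4 over 3, fraction 8 over 7 and the difference. The 9 include SCARNA2 (adjusted p 2.28e-06), RN7SL1 (0.0145), RPPH1 (0.0222) and the U2 row (0.0183). The 3 are SCARNA2, the row nearly identical to it and MAD2L1. The cause of these changes was not tested. Of 1883 log2 fold changes of single genes under these alternatives, 1771 kept their side of the threshold and, where never called, stayed within 1 SE of the reported value, 63 moved by more than 1 SE, 44 gained and 5 lost a call, and none that was called changed sign. Signs changed in 66 uncalled values, of at most 0.25 in size.

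Wide intervals limit the comparison below 1 CPM, where only 8 of 2231 genes in fraction 8 over 7 had an interval within 2-fold. Library shares cannot show a change in total RNA per fraction. Rows that share reads, such as 7SL copies, are uncertain one by one.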

Other observations

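Genes high in fraction 7 replicate 2 alone were varied. They included RBBP9, a serine hydrolase, at 80.8 CPM there and 8.97 to 12.5 CPM in the other 5 libraries of fractions 8 and 7. GSK3B, a kinase of glycogen and Wnt signalling, had 117 CPM against 38.0 to 45.0 CPM. POLK, a translesion DNA polymerase, had 47.4 CPM against 12.9 to 16.7 CPM, and FBXL5, an iron-sensing ubiquitin ligase subunit, had 66.1 CPM against 19.3 to 24.1 CPM. The median of the 20 ratios to the next library was 2.25. In fraction 4 replicate 1, NEMF, a factor of ribosome quality control, had 13.6 CPM against 2.56 to 4.01 CPM in the other 5 libraries of its pair. No test was made, since these genes were chosen on these values.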
